A study of Mus musculus with 24 samples.

Results

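A set of 9 genes of the lipid droplet surface and of the release of stored fat were followed through brown and white adipogenesis and in brown and white adipose tissue of the mouse. They were chosen by name: the coat proteins Plin1, Plin2, Plin3, Plin4 and Cidec, the lipases Pnpla2, Lipe and Mgll, and the lipase co-activator Abhd5. A gene was kept where the deposited table held a value above 0 in all 24 libraries. This left 7 of the 9 members, among 5035 such genes of 22418 listed. Cidec was blank in 4 libraries and Mgll in 6, and neither is described further: among genes with a value in only some libraries, 12.1% of duplicate pairs were more than 4-fold apart, against 0.0199% among the complete genes.

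The study set ribosome profiling beside RNA-seq. Ribosome protected fragments (RPF) are the stretches of mRNA shielded by ribosomes and were read as the amount of translation, RNA-seq as the amount of mRNA, and their ratio (Eff, translational efficiency) as ribosome loading per mRNA. Both were given as RPKM, read density scaled to the length of the coding sequence and to library size, so that levels of different genes can be set side by side. Each assay covered 6 groups of 2 libraries. Brown and white preadipocytes (day 0) were stromal vascular fraction cells from interscapular brown and inguinal subcutaneous white fat of C57BL/6 mice aged 2 to 3 weeks, grown to confluence. Adipocytes (day 5) were the same kinds of culture 5 days after the start of differentiation. They had been given insulin, dexamethasone, 3-isobutyl-methylxanthine and rosiglitazone for the first 2 days, insulin alone for the next 2 and none of these on the last day. Rosiglitazone is an agonist of PPARγ, and the day 5 cultures of both lineages had received it while no day 0 culture had. The serum changed as well, from new-born calf serum up to day 0 to fetal bovine serum afterwards. Interscapular brown fat tissue (BAT) and white fat tissue from the epididymal depot (eWAT) came from male C57BL/6 mice of 6 weeks, each library a pool of tissue from 3 mice. The same 6 mice gave BAT and eWAT, and each pool was divided between the assays, so that the tissue libraries are not independent of each other across depots and assays. White cultures and eWAT thus came from different depots. The tissues hold other cells beside adipocytes, and fewer cells of a type cannot be told apart from less RNA per cell. Nothing states that the duplicate culture libraries came from separate cultures, so the p-values measure only the spread between these libraries, which may be technical.

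A fat cell keeps triglyceride in a droplet bounded by a single phospholipid layer, and the proteins on that layer decide how easily lipases reach the fat. Perilipin 1 (Plin1) is the main coat protein of the large droplets of adipocytes. In the resting state it holds Abhd5 (CGI-58), and when protein kinase A phosphorylates it, Abhd5 is set free and activates Pnpla2 (adipose triglyceride lipase, ATGL), which removes the first fatty acid from a triglyceride. Lipe (hormone-sensitive lipase, HSL), also a target of protein kinase A, cuts the resulting diglyceride, and monoglyceride lipase (Mgll) ends the series. Plin2 coats droplets in many cell types and is degraded when no lipid is bound, Plin3 is mostly cytosolic and moves onto nascent droplets, and Plin4 is an adipocyte-enriched perilipin of small nascent droplets.

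The promoters of the 4 perilipins are shown because the genes moved differently, Plin1, Plin2 and Plin4 with differentiation and Plin3 little. Each window runs from 250 bases before to 50 bases after a transcription start given by RefSeq on GRCm38.p6, 5′ to 3′ on the strand of the gene. Capitals mark letters of 4 motifs, searched on both strands: the CCAAT box (CCAAT), the TATA box (TATAA), the E-box (CACGTG) and the GC box (GGGCGG).
Plin1, chr7:79732727-79733026, minus strand: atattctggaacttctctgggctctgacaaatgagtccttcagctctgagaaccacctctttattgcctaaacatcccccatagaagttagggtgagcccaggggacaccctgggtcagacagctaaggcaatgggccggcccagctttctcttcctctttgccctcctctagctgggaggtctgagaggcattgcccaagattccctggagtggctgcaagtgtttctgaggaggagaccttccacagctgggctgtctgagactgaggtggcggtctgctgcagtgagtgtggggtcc
Plin2, chr4:86670010-86670309, minus strand: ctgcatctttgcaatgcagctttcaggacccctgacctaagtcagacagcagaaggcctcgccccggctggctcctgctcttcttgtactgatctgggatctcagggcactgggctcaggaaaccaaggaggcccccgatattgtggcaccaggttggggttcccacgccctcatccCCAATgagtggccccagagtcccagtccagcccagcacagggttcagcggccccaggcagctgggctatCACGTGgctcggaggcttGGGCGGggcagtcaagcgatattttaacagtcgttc
Plin3, chr17:56290462-56290761, minus strand: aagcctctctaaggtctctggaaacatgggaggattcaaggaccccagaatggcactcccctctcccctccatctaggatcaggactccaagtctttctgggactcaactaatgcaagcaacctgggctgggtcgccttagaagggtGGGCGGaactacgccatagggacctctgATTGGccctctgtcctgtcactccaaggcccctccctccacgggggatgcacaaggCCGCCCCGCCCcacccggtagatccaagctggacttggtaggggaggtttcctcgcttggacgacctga
Plin4, chr17:56109733-56110032, minus strand: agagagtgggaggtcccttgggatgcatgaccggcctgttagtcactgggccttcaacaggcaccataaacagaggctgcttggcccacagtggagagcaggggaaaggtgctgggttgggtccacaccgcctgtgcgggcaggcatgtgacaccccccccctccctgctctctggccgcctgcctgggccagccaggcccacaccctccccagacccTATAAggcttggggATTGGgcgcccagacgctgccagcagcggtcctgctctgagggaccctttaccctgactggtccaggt
The Plin1 window held none of these motifs. Plin2 had an E-box whose first base lies at -4, a CCAAT box at -73 and a GC box at +15. Plin3 had a CCAAT box on the reverse strand at -75 and 3 GC boxes, at -103, -19 and -14, of which the last pair share a base. Plin4 was the single perilipin with a TATA box, at -32, followed by a reverse CCAAT box at -18. Over all 32851 promoter windows of this length the E-box stood in 7.15%, CCAAT in 37.4%, TATAA in 24.9% and the GC box in 35.7%. Of the lipase genes, Pnpla2 had GC boxes at -109 and -26, the first Lipe promoter had an E-box at -155 and 6 GC boxes, the second Lipe promoter had none of the motifs, and Abhd5 had a GC box at -136. The full cAMP response element (TGACGTCA, in 1.79% of all windows) and the DR1 direct repeat bound by PPARγ and RXR (in 0.381%) were in no window of the 7 genes. The GC content was 55.7% for Plin1, 60.7% for Plin2, 59.3% for Plin3 and 65.0% for Plin4, against a median of 52.7% over all windows.

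The reads to which RPKM was scaled were recovered from the RPKM steps of 4841 genes. They numbered 217395 to 1765714 for the RPF libraries and 3757577 to 12307821 for the RNA libraries. By the authors' definition of RPKM these are mapped reads, not all reads sequenced. The low RPF values of day 0 thus rest on few reads. The summed level of 6 adipocyte markers, in RPF, was 2861 to 3435 RPKM in brown and 4740 to 4872 RPKM in white preadipocytes, 52953 to 55608 RPKM in both kinds of adipocyte, 49678 to 50424 RPKM in BAT and 115347 to 117510 RPKM in eWAT. Between preadipocytes the single markers did not follow this sum. In RPF 4 of the 6 were higher in brown preadipocytes and 1, Fabp4, was lower. All 8 markers fixed for brown adipocytes, Ucp1 among them, were blank in some library, so brown identity was not checked by them. The RPF libraries of the tissues carry another lane number in their names than the RPF libraries of the cultures, and in RPF lane and tissue cannot be told apart. Brown and white libraries of one kind shared a lane.

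**Figure D1:**
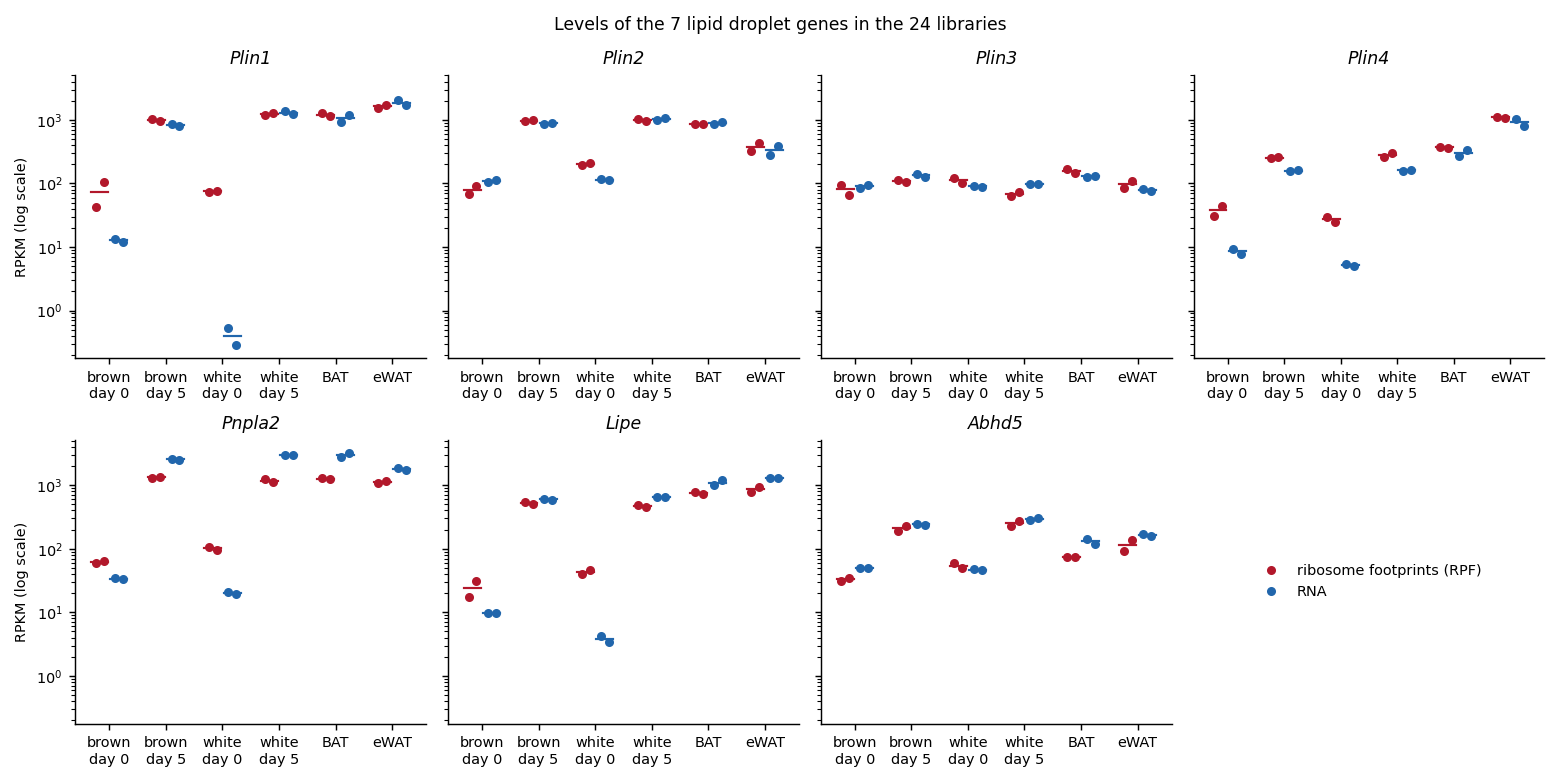
RPKM (log axis) of the 7 genes in each library, by group, with RPF in red, RNA in blue and bars at the mean of 2 libraries. In each assay the other 6 genes stood lower in both preadipocyte groups than elsewhere, while all 24 values of Plin3 lay between 62.7 and 167 RPKM.

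During brown adipogenesis 6 of the 7 genes rose in RPF and all 7 in RNA, and during white adipogenesis 6 rose in both. Of all genes tested, 60.6% changed in RPF during brown adipogenesis (26.0% upwards) and 74.6% in RNA (29.7% upwards), and during white adipogenesis 52.8% changed in RPF (16.7% upwards) and 81.0% in RNA (27.5% upwards). The median log2 difference over the 7 genes, day 5 minus day 0, was 3.64 (RPF) and 4.23 (RNA) for brown and 3.37 and 4.97 for white cells, where the medians of all genes were -0.16, -0.20, -0.38 and -0.37. Along with these genes all 6 adipocyte markers rose in RNA in both lineages. In RPF all 6 rose in white cells, while in brown cells 5 rose and Cfd fell (log2 -0.56, SE 0.12, adjusted p = 0.0016, limma). The summed RNA of 6 fibroblast and preadipocyte markers went from 11854 to 12113 RPKM at day 0 to 1247 to 1347 RPKM at day 5 in brown cells. In white cells it went from 13705 to 13801 RPKM to 2820 to 3195 RPKM. The part of either set of markers in the result was not tested.

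Plin1, the adipocyte coat protein, was close to absent from the RNA of white preadipocytes. Its RNA level there was 0.523 and 0.282 RPKM, from 10 and 5 reads, and it ranked 5035th of 5035 genes. In brown preadipocytes it was 13.6 and 11.9 RPKM, and at day 5 it was 875 and 812 RPKM in brown and 1381 and 1231 RPKM in white cells. The day 0 and day 5 libraries were separated by a wide gap in both lineages, by 66.3-fold in brown cells (log2 difference 6.05, SE 0.22, adjusted p = 2.78e-11, limma) and 3396-fold in white cells (11.73, SE 0.22, adjusted p = 7.04e-14). In RPF the level was 42.5 and 104 RPKM in brown and 74.7 and 75.3 RPKM in white preadipocytes, then 1043 and 968 RPKM and 1197 and 1292 RPKM at day 5. The RPF rise was 15.1-fold in brown (log2 3.92, SE 0.28, adjusted p = 4.87e-08) and 16.6-fold in white cells (4.05, SE 0.28, adjusted p = 6.22e-08), and the rises differed by -0.13 (SE 0.39, adjusted p = 0.825). The RPF values of the brown preadipocytes rest on 16 and 35 reads and those of the white on 45 and 64. With a share of the day 5 RPF subtracted from day 0, as described below, the log2 rises were 6.56 in brown and 10.58 in white cells. Both white and the first brown day 0 library then lay at the floor of the subtraction.

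Plin2, the coat protein found in many cell types, was the most abundant perilipin in preadipocyte RNA. It measured 105 and 112 RPKM in brown and 116 and 114 RPKM in white preadipocyte RNA and rose to 873 and 893 RPKM and 1013 and 1087 RPKM, that is 8.12-fold in brown (log2 3.02, SE 0.11, adjusted p = 4.45e-11) and 9.15-fold in white cells (3.19, SE 0.11, adjusted p = 2.7e-11). In RPF it went from 67.8 and 90.1 RPKM to 962 and 993 RPKM in brown cells, 12.5-fold (3.64, SE 0.16, adjusted p = 4.33e-10). In white cells it went from 192 and 210 RPKM to 1024 and 971 RPKM, 4.97-fold (2.31, SE 0.16, adjusted p = 6.64e-08). The 2 lineages ended at like RPF levels from different starts, and the RPF rise was larger in brown cells by 1.33 on the log2 scale (SE 0.23, adjusted p = 0.000949).

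Plin3, which has a large cytosolic pool, stayed within a narrow range. Its RNA rose 1.48-fold in brown cells, from 86.0 and 94.0 RPKM to 143 and 124 RPKM (log2 0.57, SE 0.09, adjusted p = 9.53e-05), and in white cells it was 90.7 and 89.2 RPKM before and 96.5 and 99.6 RPKM after (0.12, SE 0.09, adjusted p = 0.231). In RPF it measured 94.2 and 66.6 RPKM, then 115 and 104 RPKM in brown cells, a difference that did not pass the test (0.46, SE 0.21, adjusted p = 0.0761) but passed after median-of-ratios scaling (0.60) and without the first brown day 0 RPF library (0.71). In white cells RPF fell by 0.70 on the log2 scale, from 124 and 100.2 RPKM to 62.7 and 74.6 RPKM (SE 0.21, adjusted p = 0.0139), the only fall among the 14 RPF differences of adipogenesis. The difference was -0.36 after median-of-ratios scaling and -0.42 after quantile scaling, and it passed the test under neither, nor without the first white day 0 or the first white day 5 RPF library.

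Plin4, the perilipin of nascent adipocyte droplets, rose from a low base. Its RNA went from 9.31 and 7.82 RPKM to 156 and 163 RPKM in brown cells, 18.7-fold (log2 4.23, SE 0.13, adjusted p = 6.42e-12), and from 5.33 and 5.01 RPKM to 158 and 165 RPKM in white cells, 31.3-fold (4.97, SE 0.13, adjusted p = 1.53e-12). In RPF it went from 30.4 and 44.8 RPKM to 249 and 261 RPKM, 6.90-fold (2.79, SE 0.18, adjusted p = 2.03e-08), and from 30.0 and 25.2 RPKM to 265 and 305 RPKM, 10.4-fold (3.37, SE 0.18, adjusted p = 6.58e-09). The Plin4 protein is built from tandem repeats, and its coding sequence of 4212 bases repeats itself: 1481 of its 4185 windows of 28 bases (35.4%) occurred more than once, up to 8 times, against 0 windows in each of the other 6 genes. The authors let a read map to 1 site, and what this does to the level of Plin4 beside the other perilipins was not tested.

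Pnpla2, the first lipase of the series, had the highest RNA of the 7 genes at day 5 and ranked 32nd of 5035 genes in brown and 20th in white adipocytes. Its RNA rose from 35.1 and 32.9 RPKM to 2621 and 2472 RPKM in brown cells, 74.9-fold (log2 6.23, SE 0.09, adjusted p = 2.2e-14), and from 20.8 and 19.1 RPKM to 2953 and 2942 RPKM in white cells, 148-fold (7.21, SE 0.09, adjusted p = 2.58e-15). In RPF it rose from 60.7 and 64.1 RPKM to 1302 and 1360.3 RPKM, 21.3-fold (4.42, SE 0.11, adjusted p = 3.78e-12), and from 106 and 96.2 RPKM to 1234 and 1117 RPKM, 11.6-fold (3.54, SE 0.11, adjusted p = 6.15e-11). The brown rise exceeded the white by 0.87 in RPF (SE 0.16, adjusted p = 0.00137) and fell short of it by 0.98 in RNA (brown minus white -0.98, SE 0.13, adjusted p = 0.000158).

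Lipe, the hormone-sensitive lipase, followed the same course at a lower level. Its RNA was 9.71 and 9.74 RPKM in brown and 4.22 and 3.45 RPKM in white preadipocytes and 617 and 591 RPKM and 649 and 651 RPKM at day 5, a rise of 62.1-fold (log2 5.96, SE 0.11, adjusted p = 8.5e-14) and 170-fold (7.41, SE 0.11, adjusted p = 8.53e-15). In RPF it was 17.1 and 30.6 RPKM, from 10 and 16 reads, and 40.7 and 46.3 RPKM, and then 548 and 504 RPKM and 487 and 447 RPKM. This was a rise of 23.0-fold in brown (4.52, SE 0.22, adjusted p = 9.56e-10) and 10.8-fold in white cells (3.43, SE 0.22, adjusted p = 2.72e-08).

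Abhd5, the co-activator that Pnpla2 needs for full activity, had the smallest rise of the 6 in each assay and lineage. Its RNA rose from 49.8 and 49.1 RPKM to 248 and 237 RPKM in brown cells, 4.91-fold (log2 2.30, SE 0.10, adjusted p = 1.38e-10), and from 48.4 and 45.7 RPKM to 287 and 307 RPKM in white cells, 6.32-fold (2.66, SE 0.10, adjusted p = 3.48e-11). In RPF it went from 31.3 and 34.9 RPKM, 8 reads in each library, to 191 and 231 RPKM, 6.36-fold (2.67, SE 0.20, adjusted p = 1.04e-07), and from 58.6 and 50.2 RPKM to 232 and 276 RPKM, 4.66-fold (2.22, SE 0.20, adjusted p = 1.02e-06). In RNA Pnpla2 stood below Abhd5 in preadipocytes, at 0.688 times its level in brown and 0.424 times in white cells, and at 10.5 and 9.93 times its level in adipocytes. In RPF it stood above Abhd5 in preadipocytes, at 1.89 times its level in brown and 1.86 times in white cells. The brown ratio rests on 19 and 18 reads of Pnpla2 and 8 of Abhd5 in each library. The order turned when a share of the day 5 RPF was subtracted from day 0, as described below. Pnpla2 was then at 6.57 and 9.99 RPKM against 22.7 and 26.3 RPKM for Abhd5 in brown cells. In white cells it was at 10.2 and 1.06 RPKM against 38.0 and 29.6 RPKM, with 1.06 the floor of the subtraction.

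**Figure D2:**
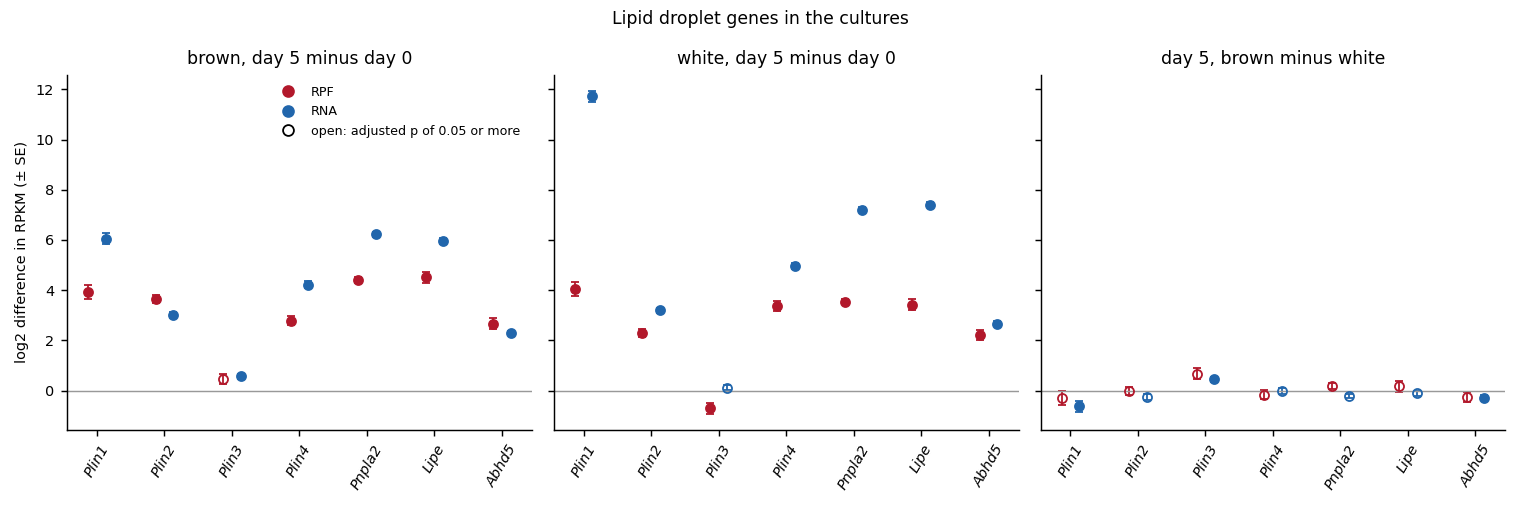
Log2 difference in RPKM with its standard error, RPF in red and RNA in blue, for day 5 minus day 0 in brown and in white cells and for brown minus white at day 5. Open symbols did not pass an adjusted p of 0.05, and the RNA of Plin1 in white cells reached 11.73.

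In RNA, Plin2 and Plin3 together made up nearly the whole perilipin RNA of preadipocytes, 49.4% and 40.9% of the summed RPKM of the 4 genes in brown and 54.6% and 42.8% in white cells (means of 2 libraries). Plin1 held 5.80% and 0.191% there. At day 5 Plin1 held 41.7% and Plin2 43.7% in brown adipocytes, and 49.9% and 40.2% in white adipocytes, with Plin3 down to 6.62% and 3.75%. The sum itself went from 220.04 to 2019.7 RPKM in brown and from 210.2 to 2616 RPKM in white cells. In RPF the day 5 make-up was close to that in RNA, with 42.8% Plin1 and 41.7% Plin2 in brown and 47.9% and 38.5% in white cells. At day 0 the values as measured were not, as Plin1 held 26.0% of perilipin RPF in brown and 18.0% in white preadipocytes. The brown libraries gave 18.1% and 34.0%, from 16 and 35 reads of Plin1. With the day 5 share subtracted, as described below, Plin1 lay at the floor in both white libraries and in the first brown library. In the second brown library it was then at 62.8 RPKM. The white contrast thus rests on values that the subtraction removed.

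**Figure D3:**
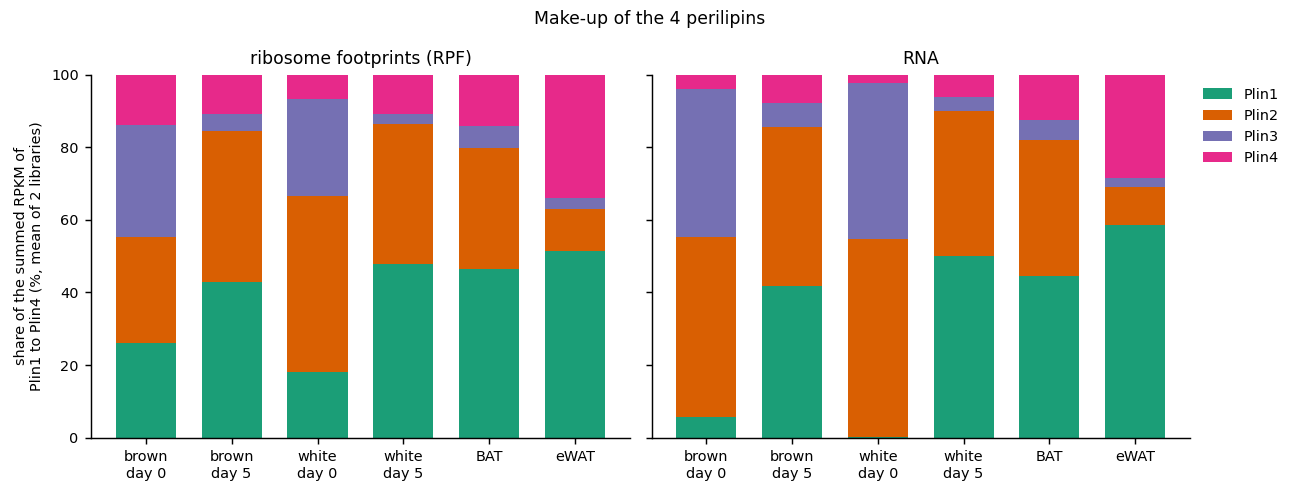
Mean share, in percent, of the summed RPKM of Plin1 to Plin4 held by each gene in the 6 groups, for RPF and for RNA (2 libraries a group). Plin2 and Plin3 fill the RNA bars of day 0, Plin1 and Plin2 those of day 5 and BAT, and Plin1 and Plin4 those of eWAT.

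At day 5 and in the tissues, RPF and RNA of these genes lay within 3-fold of each other, with Pnpla2 the least loaded. The ratio of mean RPF to mean RNA of Pnpla2 was 0.523 in brown and 0.399 in white adipocytes, 0.420 in BAT and 0.621 in eWAT, where the medians of all genes were 0.901, 0.976, 0.862 and 0.856. At day 0 the ratios of the strongly induced genes were high: for Plin1 5.74 in brown and 186 in white preadipocytes (143 to 267 over the 4 pairings of libraries), for Lipe 2.45 and 11.3, for Pnpla2 1.83 and 5.06 and for Plin4 4.39 and 5.34. For Plin2 they were 0.726 and 1.75, for Plin3 0.893 and 1.24 and for Abhd5 0.669 and 1.16, around the medians of all genes of 0.923 and 1.03. Fitted as a change in Eff, 4 genes fell and Plin2 rose in brown adipogenesis (35.9% of all genes changed), and 6 of 7 fell in white adipogenesis (24.3% of all genes changed). In brown cells the log2 difference in Eff was -2.13 for Plin1, -1.81 for Pnpla2, -1.44 for Plin4, -1.43 for Lipe and 0.62 for Plin2 (adjusted p = 0.0236). In white cells it was -7.68 for Plin1, -3.98 for Lipe, -3.67 for Pnpla2, -1.59 for Plin4, -0.88 for Plin2 and -0.83 for Plin3. The rise of Plin2 in brown cells lost its call under quantile scaling (0.57) and with voom (0.60). It lost it too without the first brown day 0 RPF library (0.42) and without some other single libraries. In white cells Plin2 (-0.42) and Plin3 (-0.53) lost their calls under quantile scaling.

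Both sides of these ratios were low at day 0, few footprints as well as, for Plin1 in white cells, few RNA reads. In RPF the day 0 level of white cells was 6.02% of the day 5 level for Plin1, 8.59% for Pnpla2, 9.31% for Lipe and 9.67% for Plin4, while in RNA the same shares were 0.0308%, 0.676%, 0.590% and 3.20%. In brown cells the RPF shares were 7.27%, 4.69%, 4.53% and 14.8%, against 1.51%, 1.34%, 1.61% and 5.36% in RNA. The white RPF shares thus lay close together where the RNA shares of the same genes were far apart. The 17 non-member genes whose RNA rose at least 64-fold in white cells had a median day 0 RPF of 8.12% of day 5. The quartiles were 6.64% and 9.55% and the range 3.38% to 223%. Their median RNA share was 0.339%, which is low by the choice of these genes. The 7 such genes of brown cells had a median of 4.06% (quartiles 3.20% and 7.18%, range 2.29% to 70.9%) at an RNA share of 0.730%. Their part in the result was not tested. When 8.12% of the day 5 RPF was taken from the white and 4.06% from the brown day 0 libraries, 2 members fell to the floor in at least 1 library of each lineage. In brown cells none of the 4 falls in Eff passed any longer, and the 2 differences that did were rises, of Plin2 (1.68) and Abhd5 (0.81). In white cells the fall of Plin3 (-0.75) alone passed. The differences in Eff of Plin1, Pnpla2 and Lipe in brown and of Plin4, Pnpla2 and Abhd5 (0.25) in white cells turned positive, while Plin4 in brown (-0.95) and Plin1 (-1.15) and Lipe (-0.81) in white cells stayed negative without passing. In RPF the 6 rises of each lineage and the fall of Plin3 in white cells (-0.63, adjusted p = 0.0353) passed under it.

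**Figure D4:**
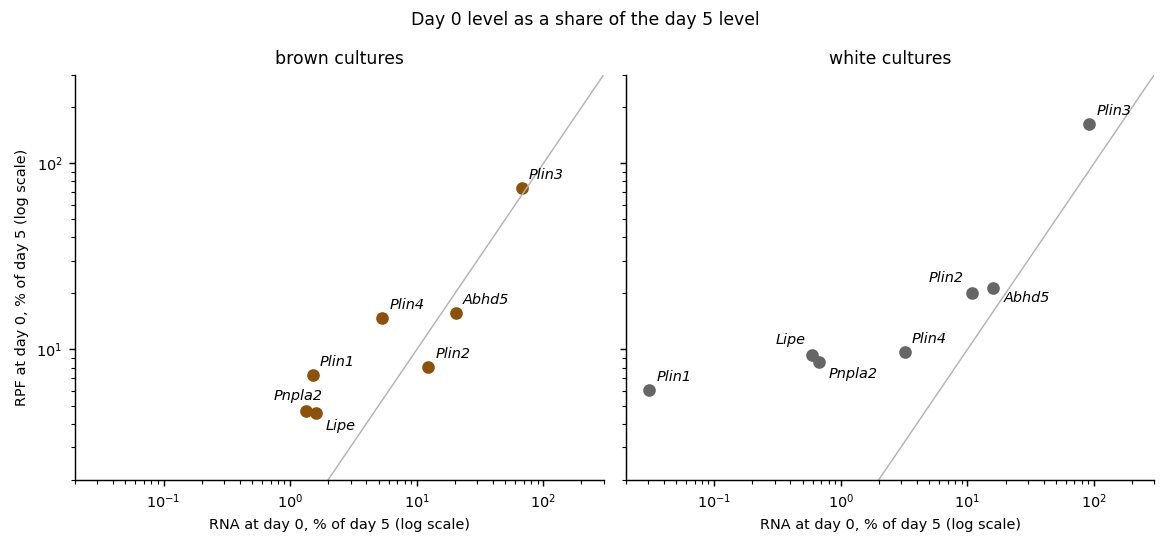
Day 0 level as a percentage of the day 5 level of the same gene, RPF on the vertical and RNA on the horizontal axis (both log), for brown and white cells, with the line of equality. Plin1, Pnpla2, Lipe and Plin4 lie above the line in both lineages, farthest for Plin1 in white cells (6.02% in RPF, 0.0308% in RNA).

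Before differentiation, 4 of the 7 genes were higher in brown than in white preadipocytes by RNA, where 3.75% of all genes differed. The log2 difference, brown minus white, was 5.05 for Plin1 (33.1-fold, SE 0.22, adjusted p = 1.11e-08), 1.35 for Lipe (2.55-fold), 0.77 for Pnpla2 and 0.72 for Plin4. The call for Plin4 was lost when the 8543 genes with a value in the 12 RNA libraries were fitted (adjusted p = 0.0580). All 6 adipocyte markers were higher in brown preadipocytes by RNA as well, with summed levels of 635 to 659 RPKM against 180 to 189 RPKM, and their part in the result was not tested. Plin2, Plin3 and Abhd5 differed by -0.08, -0.00 and 0.07, within the spread of the libraries. In RPF the calls had the opposite sign. Plin2 was lower in brown preadipocytes by 1.36 on the log2 scale (SE 0.16, adjusted p = 5.58e-05), Lipe by 0.92, Abhd5 by 0.72 and Pnpla2 by 0.69, 4 of 7 where 37.3% of all genes differed, and Eff was lower for 5 of 7, where 33.2% of all genes differed. Of the 6 adipocyte markers 4 were higher in brown preadipocytes in RPF and 1, Fabp4 (log2 -1.66), was lower. With the day 5 share subtracted, Plin2 stayed lower in brown preadipocytes in RPF (-1.67), Lipe (-0.24) and Abhd5 (-0.46) lost their calls, and Pnpla2 was at 1.30 and did not pass. Plin4 then passed as higher in brown cells (2.82, SE 0.43, adjusted p = 0.00068), as did Plin1 (3.71, SE 1.11), for which both white and 1 of the 2 brown libraries lay at the floor of the subtraction. The 2 Eff differences that passed then were of opposite sign, -1.59 for Plin2 and 2.10 for Plin4. Fitted on the 4 day 0 RPF libraries alone, 1 of the 4 RPF differences passed.

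At day 5 no member differed in RPF between brown and white adipocytes, and 13.7% of all genes did. A single member passed an unadjusted p of 0.05, Plin3 (log2 0.68, SE 0.21, adjusted p = 0.0528), and 2 members passed with voom on recovered reads. In RNA 3 members passed, where 51.9% of all genes did: Plin3 was higher in brown adipocytes by 0.44 (SE 0.09, adjusted p = 0.00161), and Plin1 was lower by 0.63 (SE 0.22, adjusted p = 0.0282) and Abhd5 by 0.29 (SE 0.10, adjusted p = 0.0249). Plin1 and Abhd5 lost their call when any one of the 4 day 5 RNA libraries was left out and when all 8543 genes with a value in the 12 RNA libraries were fitted, and 5 members passed after median-of-ratios scaling. In Eff none passed, with 1 at an unadjusted p under 0.05 (Pnpla2, 0.39, SE 0.14, adjusted p = 0.0803), 1 with voom, and 7.41% of all genes. The fibroblast markers were lower in brown than in white adipocytes, with summed RNA of 1247 to 1347 RPKM against 2820 to 3195 RPKM and 5 of 6 called. The part of these cells in the result was not tested.

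The test of the difference between the 2 adipogenic changes shares its libraries with all of the above. It found 4 members with a larger RPF rise in brown cells (31.2% of all genes differed), 5 that differed in RNA (35.3%) and 4 in Eff (15.6%). In RPF these were Plin2 (1.33), Plin3 (1.17), Lipe (1.09) and Pnpla2 (0.87). In RNA the rise was smaller in brown cells for Plin1 (-5.68), Lipe (-1.46), Pnpla2 (-0.98) and Plin4 (-0.74, adjusted p = 0.0545 with the 8543 genes) and larger for Plin3 (0.45). Pnpla2 and Lipe rose in both assays and lineages, but the brown minus white difference of their rises had opposite signs in the 2 assays. With the day 5 share subtracted, the RPF difference of Pnpla2 was -1.12 and that of Lipe 0.41, and neither passed. The RPF rises of Plin1 were then 6.56 in brown and 10.58 in white cells, and those of Plin4 3.28 and 6.26. Plin1 lay at the floor of the subtraction in both white and the first brown day 0 library. For Plin2 (4.70 and 3.06) and Plin3 (0.55 and -0.63) the brown change stayed the larger.

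BAT and eWAT differed in the kind of perilipin they held. BAT had more Plin2 and Plin3, eWAT more Plin4, and the lipases Pnpla2 and Lipe did not pass the test in RPF (limma). With voom on recovered reads all 7 members passed in RPF, these lipases included. Among the 7 genes 4 differed with limma in RPF (39.8% of all genes) and 6 in RNA (69.2%), with 2 higher and 2 lower in BAT in RPF and 3 and 3 in RNA. The median log2 difference of all genes, BAT minus eWAT, was -0.31 in RPF and -0.30 in RNA. Without the first BAT RPF library 2 of the 4 RPF calls were left.

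In RPF Plin2 measured 875 and 875 RPKM in BAT against 319 and 431 RPKM in eWAT, 2.36-fold higher (log2 1.24, SE 0.16, adjusted p = 4.29e-05), and in RNA 872 and 921 RPKM against 285 and 382 RPKM, 2.72-fold higher (1.44, SE 0.11, adjusted p = 1.4e-07). The 2 tissues did not overlap in either assay. Plin4 was the reverse, at 369.6 and 367 RPKM in BAT against 1125 and 1065 RPKM in eWAT in RPF, 2.97-fold lower in BAT (-1.57, SE 0.18, adjusted p = 1.66e-05), and 273 and 335 RPKM against 1023 and 812 RPKM in RNA, 3.01-fold lower (-1.59, SE 0.13, adjusted p = 1.87e-07). Plin3 was 1.63-fold higher in BAT in RPF, at 167 and 148 RPKM against 83.9 and 110.5 RPKM (0.71, SE 0.21, adjusted p = 0.0187), and 1.66-fold higher in RNA, at 127 and 133 RPKM against 80.7 and 76.4 RPKM (0.73, SE 0.09, adjusted p = 1.31e-05). The RPF call for Plin3 was lost without the first BAT or the first eWAT library, at 0.62 and 0.51.

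Plin1 stood highest of the perilipins in both tissues. In RNA it was 942 and 1203 RPKM in BAT and 2041 and 1715 RPKM in eWAT, lower in BAT by 0.81 (SE 0.22, adjusted p = 0.00487). In RPF it was 1262 and 1170 RPKM against 1565 and 1747 RPKM, a difference of -0.44 that did not pass (SE 0.28, adjusted p = 0.224), and there it ranked 134th of 5035 genes in BAT and 42nd in eWAT. The perilipin make-up in RPF was 46.5% Plin1, 33.4% Plin2, 6.01% Plin3 and 14.1% Plin4 in BAT and 51.3%, 11.6%, 3.00% and 34.1% in eWAT. In RNA Plin2 held 37.5% in BAT and 10.6% in eWAT, and Plin4 12.6% and 28.5%.

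Pnpla2 was the single member whose Eff differed between the tissues, where 4.05% of all genes did. Its RNA was 2796 and 3244 RPKM in BAT and 1865 and 1757 RPKM in eWAT, 1.66-fold higher in BAT (log2 0.73, SE 0.09, adjusted p = 8.95e-06), while its RPF was 1282 and 1252 RPKM against 1085 and 1163 RPKM (0.17, SE 0.11, adjusted p = 0.23). Eff was lower in BAT by 0.56 (SE 0.14, adjusted p = 0.0223). This call was lost with RPF over RNA paired by replicate number (adjusted p = 0.261, limma). It was lost too on the tissue libraries alone, with no trend and with a weight for each assay. Without either BAT RPF library, the second eWAT RPF library or the second RNA library of either tissue it was lost as well. Under quantile scaling the RPF difference of Pnpla2 was -0.54 and its RNA difference 0.11. Lipe was 788 and 728 RPKM in BAT and 793 and 931 RPKM in eWAT in RPF, and 996 and 1199 RPKM against 1321 and 1286 RPKM in RNA, and passed in neither (adjusted p = 0.528 and 0.0521). Abhd5 was lower in BAT, at 74.0 and 74.6 RPKM against 92.9 and 135 RPKM in RPF (-0.59, SE 0.20, adjusted p = 0.0348) and 145 and 119.6 RPKM against 168 and 161 RPKM in RNA (-0.32, SE 0.10, adjusted p = 0.0103). Both calls for Abhd5 were lost under median-of-ratios scaling (-0.32 and -0.06) and quantile scaling (-0.43 and -0.20).

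In RPF Pnpla2 exceeded its co-activator Abhd5 17.1-fold in BAT (16.8 to 17.3) and 10.2-fold in eWAT (8.63 to 11.7). Other cell types differed between the tissues at the same time. The summed RNA of the 6 fibroblast markers was 469 to 586 RPKM in BAT and 1129 to 1200 RPKM in eWAT, with all 6 lower in BAT, and Lyz2, the only 1 of 10 macrophage markers with a value in all libraries, was 191 to 201 RPKM in BAT and 805 to 859 RPKM in eWAT. Of the 6 adipocyte markers 4 were lower in BAT in RNA, with summed levels of 38933 to 41320 RPKM against 69531 to 70624 RPKM. Their part in the result was not tested.

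**Figure D5:**
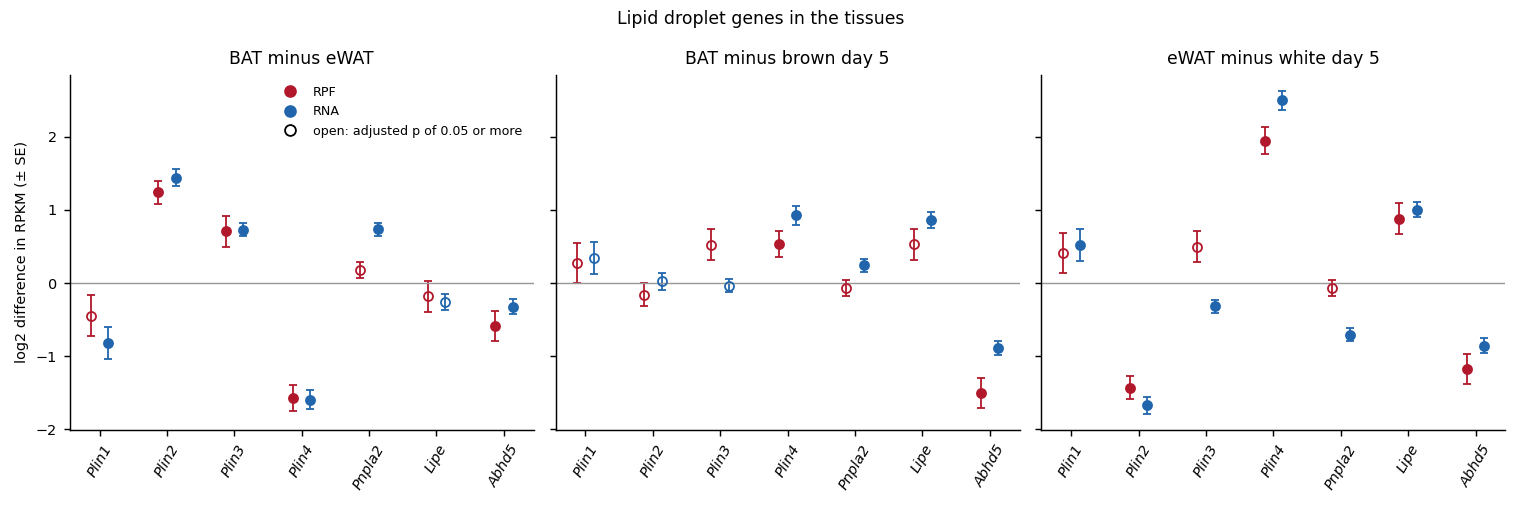
Log2 difference in RPKM with its standard error, RPF in red and RNA in blue, for BAT minus eWAT, BAT minus brown day 5 culture and eWAT minus white day 5 culture. Open symbols did not pass an adjusted p of 0.05. Plin2 and Plin4 point in opposite directions in BAT minus eWAT, and Abhd5 lies below 0 in all 3 panels.

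Set against brown adipocytes in culture, BAT had less Abhd5 and more Plin4. In RPF 2 of 7 genes differed (44.3% of all genes), in RNA 4 (63.6%) and in Eff none (17.8%), where 3 members, Plin3, Pnpla2 and Abhd5, had an unadjusted p under 0.05 and 4 passed with voom. The median log2 difference of all genes was -0.45 in RPF and -0.32 in RNA. Abhd5 was 2.83-fold lower in BAT in RPF (log2 -1.50, SE 0.20, adjusted p = 9.99e-05) and 1.85-fold lower in RNA (-0.88, SE 0.10, adjusted p = 5.65e-06), and tissue and culture libraries did not overlap. In RPF the lane number differed between the 2 as well. Plin4 was higher in BAT by 0.53 in RPF (SE 0.18, adjusted p = 0.0308) and by 0.92 in RNA (SE 0.13, adjusted p = 4.94e-05). The RPF call for Plin4 was lost with no trend and without any one of the 4 libraries compared. Lipe was higher in BAT by 0.86 in RNA (SE 0.11, adjusted p = 1.91e-05), where RPF gave 0.53 (adjusted p = 0.0629), and Pnpla2 was higher by 0.24 in RNA (SE 0.09, adjusted p = 0.0312), a call that was lost with all genes complete in RNA (adjusted p = 0.0555). The RPF count was 5 after median-of-ratios scaling, on the 4 libraries alone, with voom, and without either brown day 0 library, and it was 1 without any one of the 4 libraries compared. Other cell types moved too. Lyz2 was 191 to 201 RPKM in BAT RNA and 40.7 to 41.2 RPKM in culture, and 3 of the 6 fibroblast markers were lower and none higher in BAT in RNA (summed 469 to 586 RPKM against 1247 to 1347 RPKM), but 2 higher and 2 lower in RPF. Of the adipocyte markers 3 were higher and 2 lower in RNA. Their part in the result was not tested.

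Set against white adipocytes in culture, eWAT had more Plin4 and Lipe and less Plin2 and Abhd5. In RPF 4 of 7 genes differed (38.1% of all genes), in RNA all 7 (68.5%) and in Eff 2 (23.6%). The median log2 difference of all genes was -0.17 in RPF and 0.09 in RNA. Plin4 was 3.85-fold higher in eWAT in RPF (log2 1.94, SE 0.18, adjusted p = 2.26e-06) and 5.64-fold higher in RNA (2.50, SE 0.13, adjusted p = 3.98e-09). Plin2 was 2.69-fold lower in RPF (-1.43, SE 0.16, adjusted p = 1.14e-05) and 3.18-fold lower in RNA (-1.67, SE 0.11, adjusted p = 4.7e-08). Lipe was 1.84-fold higher in RPF (0.88, SE 0.22, adjusted p = 0.00595) and 2.01-fold higher in RNA, and Abhd5 was 2.26-fold lower in RPF (-1.18, SE 0.20, adjusted p = 0.00051) and 1.81-fold lower in RNA. In RNA alone Plin1 was higher by 0.52 (adjusted p = 0.049, lost under many of the alternatives), and Pnpla2 was lower by 0.70 and Plin3 by 0.32. Eff was higher in eWAT for Plin3 (0.81, SE 0.24, adjusted p = 0.0174) and Pnpla2 (0.64, SE 0.14, adjusted p = 0.0026). Neither passed with RPF over RNA paired by replicate number. In RPF Pnpla2 stood at 6.35 times the level of Abhd5 in brown and 4.69 times in white culture, below both tissues. Relative to Lipe it was at 2.54 and 2.52 times in culture, 1.67 times in BAT and 1.31 times in eWAT. Lyz2 was 805 to 859 RPKM in eWAT RNA and 153 to 162 RPKM in white culture, and of the fibroblast markers 4 were lower and 1 higher in eWAT in RNA (summed 1129 to 1200 RPKM against 2820 to 3195 RPKM). Of the adipocyte markers 3 were higher and 1 lower. Their part in the result was not tested.

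Of 22 genes fixed for β-adrenergic and protein kinase A signalling, 11 had values in all libraries and none of the 3 β-adrenergic receptors was among them. Brown adipogenesis raised 5 of the 11 in RPF and lowered 4 (6 and 4 in RNA), and white adipogenesis raised 5 and lowered 5 (5 and 4 in RNA). Of all genes 26.0% rose and 60.6% changed in RPF in brown and 16.7% and 52.8% in white cells, and in RNA 29.7% and 74.6% and 27.5% and 81.0%. Pde3b, the phosphodiesterase through which insulin restrains lipolysis, gained 4.26 (brown) and 3.13 (white) on the log2 scale in RPF and 5.98 and 5.39 in RNA. Prkar2b, the regulatory subunit of protein kinase A most used in fat, rose by 3.03 and 2.43 in RPF, and Prkaca, a catalytic subunit, by 2.27 in brown cells, while Gnai2, an inhibitory G protein subunit, fell (-2.73 and -1.97). In the tissues 5 of the 11 were higher and 1 lower in BAT in RPF, where 39.8% of all genes differed. Gnas, the stimulatory G protein subunit, was higher by 1.51 and Prkar2b by 1.31, and Akap1, which anchors the kinase at mitochondria, by 2.62, while Gnai2 was lower (-1.44). Between brown and white adipocytes at day 5 none of the 11 passed in RPF (limma), where 13.7% of all genes did, with 1 at an unadjusted p under 0.05 and 1 passing with voom.

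Of 31 genes fixed for other droplet proteins and droplet formation, 18 were complete. In RPF brown adipogenesis raised 9 of them and lowered 3, and white adipogenesis raised 5 and lowered 5, where 26.0% and 16.7% of all genes rose. Among those that rose were Dgat1, which makes triglyceride (3.55 in brown and 3.37 in white cells), Fitm2, which partitions it into droplets (3.18 and 2.70), the droplet-forming seipin gene Bscl2 (1.47 and 2.12) and the caveolar coat gene Cav1 (2.96 and 2.31). In brown against white preadipocytes 10 of the 18 were lower and 1 higher in RPF, where 37.3% of all genes differed. In RNA, where 3.75% did, none passed (limma), with 3 at an unadjusted p under 0.05 and 0 passing with voom. The RPF count uses the day 0 values as measured, without the subtraction of the day 5 share. The median log2 difference of all genes was -0.18 in RPF. The brown day 0 RPF libraries were scaled to only 242425 and 217395 reads. In RPF 2 of the 18 were higher and 5 lower in BAT than in eWAT (39.8% of all genes differed), among them Cav1 (-2.10) and Ptrf, a second caveolar coat gene (-1.70), while Acsl3, an acyl-CoA synthetase of nascent droplets, was higher (0.99). All genes had a median log2 difference of -0.31 between the tissues.

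Of 19 genes fixed for other lipases and for carriers of fatty acid and glycerol, 9 were complete. All 9 rose in RNA in brown and 8 in white adipogenesis, and 6 and 5 rose and 1 and 1 fell in RPF. Of all genes 29.7% rose in RNA in brown and 27.5% in white cells, and 26.0% and 16.7% in RPF. Fabp4, the adipocyte fatty acid binding protein, gained 5.11 (brown) and 3.31 (white) on the log2 scale in RPF and 7.06 and 8.26 in RNA, and the fatty acid receptor Cd36 by 4.71 and 3.48 in RPF and 7.29 and 8.21 in RNA. As for Pnpla2 and Lipe, Fabp4 rose more in brown cells by RPF as measured (adjusted p of the difference 8.95e-07, limma). By RNA its rise was smaller in brown cells (brown minus white -1.20). For Pnpla2 and Lipe the RPF difference did not pass once the day 5 share was subtracted. Fabp4 rose enough in RNA to be among the genes that gave this share, so the subtraction cannot judge its RPF difference. None of the 9 was higher in BAT than in eWAT in RPF and 5 were lower (39.8% of all genes differed), among them Lpl, which frees fatty acid from lipoproteins (-1.58), and Cd36 (-1.09). All genes had a median log2 difference of -0.31 there. Fabp5 was lower in both tissues than in culture, by 3.55 in BAT and 2.66 in eWAT on the log2 scale in RPF.

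As a description over the 12 RNA libraries, which share their groups, the 15 pairs among the 6 genes other than Plin3 had Pearson r of 0.754 to 0.985 (median 0.929) on log2 RPKM, and the 6 pairs with Plin3 had 0.210 to 0.640. Over the 12 RPF libraries these were 0.633 to 0.988 and -0.164 to 0.243. Of all 5035 genes, Plin1 was most like Adipoq, the gene of the adipocyte hormone adiponectin, in RNA (r = 0.999). Plin2 was most like the respiratory chain gene Uqcr11 (r = 0.997), and Plin4 most like Rgcc (0.990) in RNA and Adipoq (0.991) in RPF. Pnpla2 was most like the stearoyl-CoA desaturase Scd1 in RNA (0.999), whose reads may be shared among its near-identical paralogs, and Dbi, which binds acyl-CoA, in RPF (0.998). Lipe was most like Pla2g16, a phospholipase of adipocytes, in RNA (0.996). Abhd5 was most like Sfxn1 (0.993) in RNA and Bcat2, a branched-chain amino acid transaminase, in RPF (0.973). Plin3 had Xrcc6 in RNA (0.965) and Hcfc1r1 in RPF (0.842), the lowest leading value of the 7 in each assay.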

How the data were processed

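RPF and RNA were measured in 24 libraries, 2 for each of 6 groups and each assay. The deposited values were RPKM, which the authors computed as read density over the coding sequence, scaled to its length and to the mapped reads of the library. Adapters were trimmed with cutadapt 1.8.3, a reference transcriptome of the most abundant isoforms was built from all RNA-seq with TopHat2 2.0.9 and Cufflinks, and reads were mapped to it with Bowtie 1.0.0 without mismatches, each to 1 site. The genome build of the table was not given in the sources used here. Blank cells were taken as no value.

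Genes with a value above 0 in all 24 libraries (5035) were fitted on log2 RPKM, with no pseudocount, by limma 3.58.1 in R 4.3.3 (trend in the prior variance, two-sided, Benjamini-Hochberg over all 5035 genes, threshold 0.05). RPF and RNA were each fitted over their 12 libraries, and a difference in Eff was the RPF difference less the RNA difference in 1 model of all 24. The 8 comparisons share libraries with each other. The fits were tested on simulated data first. Reads were recovered as multiples of the RPKM step for 4841 genes with coding lengths from GENCODE vM21, and 98.6% to 98.9% of values came out whole within 0.05 reads. Duplicate libraries were not identical, and no value column was left unmapped (0). Tables were handled with Python 3.11.15, pandas 2.3.3 and numpy 2.4.6, and plots drawn with matplotlib 3.10.9.

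Members, gene lists and tests were chosen with earlier results of these data known. All members were to be named, with up to 4 genes of each list and comparison having the smallest adjusted p in RPF. For likeness the 3 genes with the highest Pearson r to each member were found in each assay, and the first is given for most members; the others are not reported here. Alternatives were a pseudocount of 1, a mean of at least 5 RPKM, all genes complete in 1 assay, other scalings, a replicate block, the compared groups alone, no trend, weights per assay, voom on recovered reads, a subtraction of day 5 signal from day 0 RPF, and leaving out each library.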

Additional observations from a re-analysis of the deposited data

Results flagged for a closer look

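Several members changed by different amounts in brown and white adipogenesis by the test of the difference itself (day 5 change in brown minus that in white cells, log2, limma). In RPF the brown change was larger for Plin2 (1.33, SE 0.23, adjusted p = 0.000949), Plin3 (1.17, SE 0.30, adjusted p = 0.0111), Lipe (1.09, SE 0.30, adjusted p = 0.0164) and Pnpla2 (0.87, SE 0.16, adjusted p = 0.00137). In RNA it was smaller for Plin1 (-5.68, SE 0.31, adjusted p = 8.31e-08), Lipe (-1.46, SE 0.15, adjusted p = 3.77e-05), Pnpla2 (-0.98, SE 0.13, adjusted p = 0.000158) and Plin4 (-0.74, SE 0.18, adjusted p = 0.00837) and larger for Plin3 (0.45, SE 0.13, adjusted p = 0.0198). In Eff it was larger for Plin1 (5.55, SE 0.56, adjusted p = 6.21e-06), Lipe (2.55, SE 0.37, adjusted p = 0.000147), Pnpla2 (1.86, SE 0.19, adjusted p = 6.69e-06) and Plin2 (1.50, SE 0.29, adjusted p = 0.00195). The RNA value of Plin1 rests on 10 and 5 reads in the white preadipocyte libraries. The RPF and Eff differences use the day 0 footprints as measured. With the day 5 share subtracted, the Eff change of Plin1 was 0.51 (SE 1.26) in brown and -1.15 (SE 1.26) in white cells, and neither passed. The Eff difference of Pnpla2 turned negative and fewer members were called in Eff, as given below. In RPF neither Pnpla2 nor Lipe passed under the subtraction.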

How the results depend on the processing

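Over the single genes, 1440 of 1568 values under the alternatives other than leaving out a library kept their side of the threshold, 51 lost it, 61 gained it and 16 turned with a call in at least 1 of the fits. Of the 1440, 15 changed sign while called in neither fit, among them Abhd5 in Eff in white adipogenesis (-0.44 to 0.25 with the subtraction). With the day 5 share subtracted from day 0 RPF, the differences in Eff turned to 0.51 for Plin1, 1.13 for Pnpla2 and 1.06 for Lipe in brown and to 1.29 for Plin4 and 1.27 for Pnpla2 in white adipogenesis, to 2.10 for Plin4 and 0.52 for Pnpla2 between preadipocytes, and to -2.24 for Plin4 and -0.13 for Pnpla2 in the difference between the lineages' changes. In RPF it turned Plin1 to 3.71 and Pnpla2 to 1.30 between preadipocytes and Pnpla2 to -1.12 in the difference of changes. The members called in Eff then numbered 2 in brown and 1 in white adipogenesis, 2 between preadipocytes and 2 for the difference of changes. Quantile scaling turned the RPF difference of Pnpla2 to -0.54 between the tissues and 0.52 in eWAT against white culture, and median-of-ratios scaling turned it to 0.41 in BAT against brown culture, where Plin3 in RNA turned to 0.27. These scalings moved the median of all genes by -0.20 to 0.48 in RPF, -0.12 to 0.35 in RNA and -0.08 to 0.23 in Eff.

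Between preadipocytes 1 member passed in RPF with the compared groups alone. Between day 5 adipocytes 2 passed in RPF with the compared groups alone and with voom on recovered reads, 5 in RNA with median-of-ratios scaling and with the compared groups alone, 1 in RNA with all genes complete in that assay, and 1 in Eff with the compared groups alone and with voom. Between the tissues 7 passed in RPF with voom, and 0 in Eff with the replicate block, the compared groups alone, no trend and weights per assay. In BAT against brown culture 5 passed in RPF with median-of-ratios scaling, the compared groups alone and voom and 1 with no trend, 7 in RNA with median-of-ratios scaling, and in Eff 1 with median-of-ratios scaling, 2 with the compared groups alone and 4 with voom. In eWAT against white culture 0 passed in Eff with the replicate block. The replicate block changed no other call. The replicate block added the replicate number as a term for RPF and RNA. For Eff it fitted log2 RPF less log2 RNA of equal replicate numbers, and so took them as pairs. Outside the replicate block the numbers were not used as pairs. BAT and eWAT came from the same mice and the assays from the same pools, but the labels do not say that equal numbers mark the same pool, and the replicate differences of 2 groups correlated at -0.33 to 0.25 within an assay and -0.06 to 0.02 between RPF and RNA of a group, over 5035 genes. The cause of these changes was not tested.

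Leaving out each library in turn kept 2578 of 2688 values on their side and turned 2 with a call in 1 of the fits, both for Plin1 in RPF, and 27 of the 2578 changed sign while called in neither fit. Between preadipocytes it was 0.47 without the first and -0.82 without the second brown day 0 library, and in the difference of changes -0.78 and 0.51. The members called then ranged, in RPF, RNA and Eff, over 6 to 7, 7 to 7 and 4 to 5 in brown adipogenesis, 6 to 7, 6 to 6 and 5 to 6 in white adipogenesis, 3 to 6, 3 to 4 and 5 to 6 between preadipocytes, 0 to 2, 1 to 4 and 0 to 0 between day 5 adipocytes, 3 to 6, 4 to 6 and 4 to 5 for the difference of changes, 2 to 5, 5 to 7 and 0 to 1 between the tissues, 1 to 5, 3 to 5 and 0 to 1 in BAT against brown culture, and 3 to 6, 5 to 7 and 1 to 3 in eWAT against white culture. The 2 RPF calls between day 5 adipocytes came without the first brown day 0 library. The single Eff call in BAT against brown culture came without either brown day 0 or eWAT RPF library or the second BAT RNA library. In eWAT against white culture 1 Eff call was left without the first white day 5 or second eWAT RPF library, or the second white day 5 or eWAT RNA library. Depth limits the day 0 RPF values most, with 8 reads for Abhd5 and 10 for Lipe in the shallowest libraries.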
